A study of Mus musculus with 79 samples.

Results

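The genes that encode subunits of the mitochondrial respiratory chain and ATP synthase were examined in mouse quadriceps. Members were all genes on the array whose symbol begins with Nduf (complex I), Uqcr (complex III), Cox4 to Cox8 (complex IV) or Atp5 (complex V), together with Sdha, Sdhb, Sdhc and Sdhd (complex II). Cox7a2l, a supercomplex factor, was left out. This gave 90 of the 22335 genes with a symbol, measured by 117 probesets, and a gene with several probesets was represented by the one with the highest mean. By role they were 7 core and 31 accessory genes of complex I, 5 complex I assembly factors, 4 genes of complex II, 8 of complex III, 17 of complex IV, and 5 genes of the F1 head and 10 of the Fo and stalk parts of complex V. The remaining 3 (Cox4nb, Atp5s and Atp5sl) carry a member's name without being structural subunits. No member was chosen by its measured level.

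Complexes I and II feed electrons from NADH and succinate into ubiquinone, complex III passes them on to cytochrome c, and complex IV hands them to oxygen. Complexes I, III and IV pump protons, and ATP synthase, complex V, uses the return flow to make ATP. Muscle is rich in this machinery, and complex IV has alternative nuclear-encoded forms of some subunits, among them a striated muscle and a general form of subunits 6a, 7a and 8. Subunits made from mitochondrial DNA are not members.

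The mice were males of the BXD family, inbred strains bred from C57BL/6J and DBA/2J mice, plus both parents. They ate chow (CD) or, from 8 weeks of age, a high fat diet (HFD), and all were fasted overnight and killed at 29 weeks. Each of the 79 arrays (42 CD, 37 HFD) held the pooled quadriceps RNA of about 5 animals of 1 strain on 1 diet, so variation among animals within a strain is hidden. The arrays fall in 2 batches by label, batch 1 holding 18 of the CD and 17 of the HFD arrays, and 37 of the 42 strains had an array on each diet. Values are in array units, a log-type scale of unstated base, set so that each array averages 8.0 with an SD of 2.0. A fold taken from such values, as if the base were 2, is called nominal.

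The label of the tissue was checked first. Skeletal muscle markers (Acta1, Ckm, Myh4, Myh1, Tnnt3, Mylpf) averaged between 14.5 and 14.7 units on CD arrays and between 14.4 and 14.7 on HFD arrays, and the 6 did not pass the diet test on the deposited scale (limma adjusted p of 0.110 or more). With the median and spread of arrays set equal 5 of the 6 were called lower, and Myh4 was called lower after quantile normalization (-0.04, adjusted p = 6.41e-04) and centring on the brightest decile (adjusted p = 0.0468). Markers of other cell types did move with diet. All 3 macrophage markers, all 3 endothelial markers and 5 of 6 adipocyte markers were higher in HFD on the deposited scale, with a median difference of 0.45 units over the adipocyte list. Csf1r (macrophage) was not called after quantile normalization, centring on the brightest decile or with equal spread (adjusted p = 0.0860, 0.0808 and 0.0691), nor Cdh5 (endothelial) with equal spread (adjusted p = 0.0680). The mean of the adipocyte list ran from 9.23 to 10.9 on CD and from 9.43 to 11.6 on HFD. No background level is stated for this scale, so whether a marker was absent was not judged. Whether fewer cells of a type or less RNA per cell lies behind a lower value cannot be told apart in bulk tissue.

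Strain BXD63 stood apart in earlier work on these data, in which olfactory receptor probesets on its arrays lay opposite to its diet labels. Among the 29 members called between diets, 20 moved in BXD63 as its labels say, and in each other paired strain 14 to 29 did so, with a median of 23.5. Cox8c and Cox7b2, which were lower in HFD over all arrays, were higher by 0.17 and 0.42 units on its array labelled HFD. The diet, strain, parent, cross-diet and pairwise results over members were therefore computed with and without this strain. Strain ranges, correlations by complex and the results for markers and other gene lists were computed only with it. Without it 31 members were called, and the median difference over members was 0.0496.

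Upstream sequence is shown for members whose transcripts moved together across strains or rose with HFD, because these genes are known targets of shared nuclear factors. RefSeq promoter sequences (GRCm38.p6) were found for 73 of the 90 members, 79 sequences in all. Within the 250 bases before the start, on either strand, the NRF1 core TGCGCA lay in 16 of them (20.3%), against 8.06% of the promoters of protein-coding genes. The ETS core CCGGAAG lay in 13 (16.5%, against 8.98%), and the ERR core AAGGTCA in 5 (6.33%, against 3.59%). The YY1 core AAGATGGC lay in 2 (2.53%, against 1.5%), and the SP1 core GGGCGG in 29 (36.7%, against 42.6%). Each motif was counted on its own and matches of different motifs may overlap. The 30 bases around the match nearest the start, with the match in capitals (the reverse complement where it lies on the other strand), were as follows for Cox6a1 (the general form of subunit 6a), Cox5b (a core nuclear subunit of complex IV), Atp5j (coupling factor 6) and Atp5g3 (a gene for the c-ring):
Cox6a1, NRF1 core, chr5:115349059-115349088, minus strand: ggacggataaagTGCGCAggcgctggagtt
Cox6a1, ETS core, chr5:115348959-115348988, minus strand: cgtccccatttccgCTTCCGGcgcgccggt
Cox5b, NRF1 core, chr1:36691423-36691452, plus strand: aagaggcagaacTGCGCAtgtgcggcgtct
Atp5j, ETS core, chr16:84835019-84835048, minus strand: agctgagggacCCGGAAGcacttaccctcc
Atp5g3, ERR core, chr2:73911360-73911389, minus strand: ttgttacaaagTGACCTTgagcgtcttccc
A match of letters is a description of the sequence and not a measured binding site.

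The diet comparison asked whether the chain's transcripts differed between chow and high fat feeding. On the deposited scale most members were slightly higher in HFD. Of the 90 members, 71 had a positive difference, and the median difference was 0.05 units (nominal fold 1.03), against -0.00 over all genes and 0.01 over the genes of the brightest decile. In limma with batch as a term, 29 members passed an adjusted p of 0.05, of which 25 rose (27.8%) and 4 fell (4.44%), while 61 did not pass. Over all 35556 probesets 38.1% were called, 18.9% higher and 19.3% lower. In this fit the members' share of 32.2% was thus below the background for calls of either direction and above it for rises. For either direction it was above the background with strain as a block (47.8% against 40.6%) and with arrays centred on their median (44.4% against 39.3%). Most members have a strong signal, 69 of them in the brightest decile, and in that decile 24.7% of probesets were called and 16.0% were higher, against 31.9% of the 69 members called and 20 of them higher. CD and HFD arrays overlapped for all 90 members, and the share of all probesets for which they overlap was not computed.

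The direction of this shift depends on how the arrays are scaled. With arrays centred on their median, quantile normalized again, or centred on the median of the brightest decile, the median over members was 0.07, 0.04 and 0.04 units. With the median and the median absolute deviation of each array set equal it was -0.02, and then 28 members were called (31.1%, against 41.3% of all probesets under that scaling), 8 higher and 20 lower. The same scaling moved the genes of the brightest decile to a median of -0.05. Relative to those genes the members stood higher by 0.03 under that scaling and by 0.04 on the deposited scale and after quantile normalization, and centring cannot change this difference. For the 69 members within that decile the values were 0.02 and 0.04. No source states which scaling leaves the true level in place. Of the 29 called members, 21 kept their sign under all 5 scalings, and 9 kept their call, 6 of them higher and 3 lower. With strain as a block, which uses the pairing of arrays by strain, 14 further members were called and no call was lost.

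**Figure D1:**
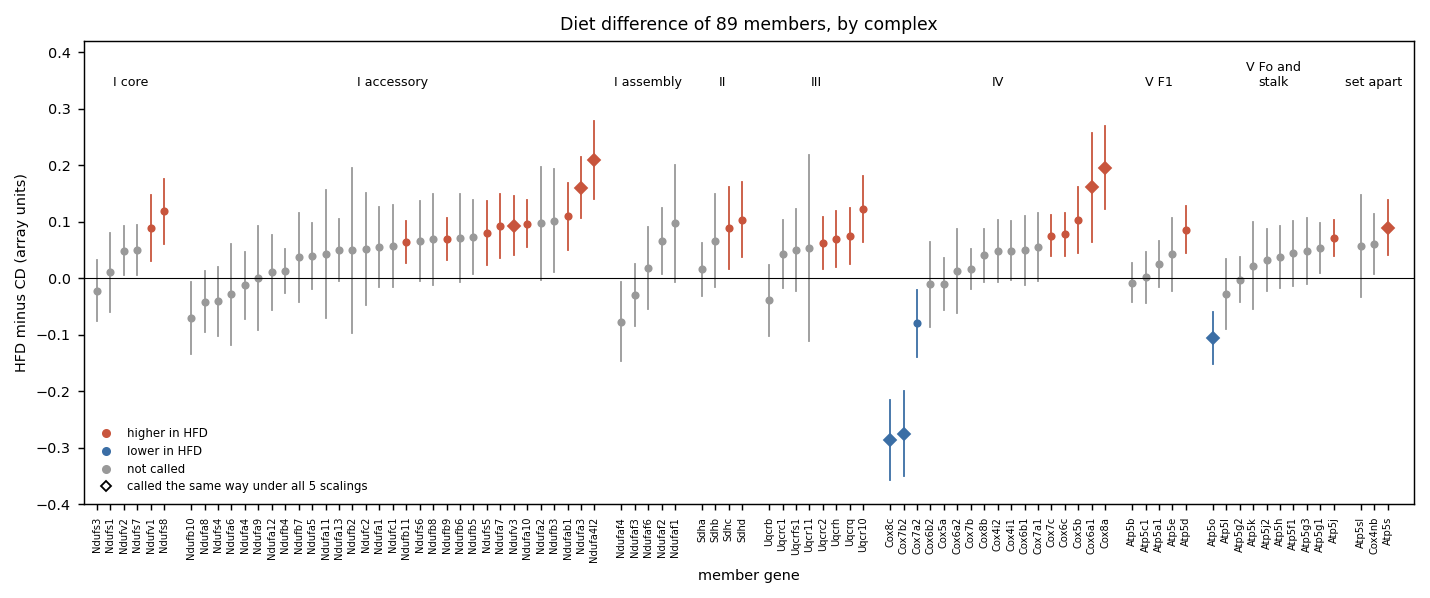
Difference between HFD and CD in array units (vertical axis) for 89 of the 90 members, grouped by complex, with lines for the confidence interval of the limma fit. Red points were called higher, blue lower and grey not called, and the 9 diamonds kept their call under all 5 scalings: most points sit a little above 0, and the widest departures are Cox8c and Cox7b2 below it and Ndufa4l2 and Cox8a above it.

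**Figure D2:**
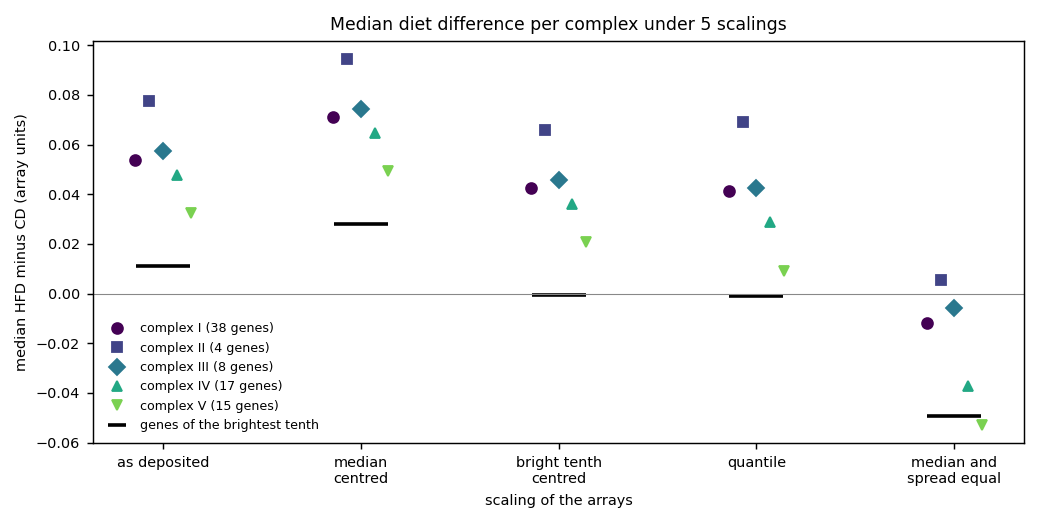
Median difference between HFD and CD in array units (vertical axis) for the genes of each complex under 5 scalings of the arrays (horizontal axis), with black bars for the genes of the brightest decile. Complex II lies highest and complex V lowest under each scaling, and with the spread of arrays set equal the medians of complexes I, III, IV and V fall below 0.

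Complex I supplied 11 of the called members, all of them rises on the deposited scale, out of 38 genes with a median difference of 0.05. Genes were assigned by the prefix of their symbol, which places Ndufa4 and Ndufa4l2 here. Ndufa3, an accessory subunit, ran from 12.3 to 12.8 units on CD with a median of 12.6, and from 12.5 to 13.0 on HFD with a median of 12.7. The groups overlapped, but HFD was higher in 34 of 37 strains, by 0.16 ± 0.03 units (SE, limma adjusted p = 1.42e-06). Ndufa3 correlated with the mean of the slow fibre markers at r = 0.54 over CD and 0.53 over HFD arrays, and those 6 markers did not pass the diet test, with a median difference of -0.22. The part of fibre type in the rise was not tested. This rise was smaller, 0.08, yet still called with the spread of arrays set equal (adjusted p = 0.0296). Ndufa4l2, a paralogue of Ndufa4 that is known as a hypoxia-responsive gene, had a CD range of 7.96 to 8.62 with a median of 8.27 and an HFD range of 8.27 to 8.87 with a median of 8.46. Its rise of 0.21 ± 0.03 (adjusted p = 7.04e-07), seen in 28 of 37 strains, was the largest rise of any member on this scale and was 0.22 with the spread set equal. Ndufv3, an accessory subunit of the NADH-oxidising module, rose by 0.09 ± 0.03 (adjusted p = 0.00331), without being called in either batch alone. The accessory subunit Ndufb10 was not called on the deposited scale (-0.07, adjusted p = 0.0683). It was called lower with strain as a block (adjusted p = 0.0426), without BXD63 (adjusted p = 0.0441), after quantile normalization (adjusted p = 0.0211), after centring on the brightest decile (adjusted p = 0.0355) and with equal spread (adjusted p = 0.0123).

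The 7 catalytic core genes of complex I carry the flavin and iron-sulphur centres or line the quinone site. Of these, 2 were called higher. Ndufs8, which binds iron-sulphur clusters next to the quinone site, ran from 12.4 to 13.1 on CD (median 12.9) and from 12.6 to 13.2 on HFD (median 13.0). It was higher in 31 of 37 strains, by 0.12 ± 0.03 (adjusted p = 7.35e-04). Ndufv1, the flavin-binding subunit, rose by 0.09 ± 0.03 (adjusted p = 0.0120). The groups overlapped for both, and with the spread of arrays set equal neither passed (0.04 and 0.01). Ndufv1 was also not called after quantile normalization (adjusted p = 0.0616). The other core genes were not called, among them Ndufs1 (0.01), Ndufs3 (-0.02), Ndufs7 (0.05) and Ndufv2 (0.05). Ndufs3 was called lower with the spread of arrays set equal (-0.10, adjusted p = 0.0113), and Ndufs7 and Ndufv2 were called higher with arrays centred on their median (adjusted p = 0.00286 and 0.0131). The 5 assembly factors did not pass, with differences from -0.08 (Ndufaf4) to 0.10 (Ndufaf1) and a smallest adjusted p of 0.0653 (Ndufaf2). With strain as a block Ndufaf2 (0.07, adjusted p = 0.0109) and Ndufaf1 (0.08, adjusted p = 0.0353) were called, as was the core gene Ndufs7 (0.06, adjusted p = 0.0477). Ndufaf2 was also called higher with median centring and with equal spread (adjusted p = 0.0204 and 0.0466). Ndufaf4 was called lower after quantile normalization (adjusted p = 0.0234), after centring on the brightest decile (adjusted p = 0.0353) and with equal spread (adjusted p = 0.0184).

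Complex II, succinate dehydrogenase, is also an enzyme of the citric acid cycle, and had the highest median difference, 0.08. Its membrane anchors were called: Sdhd rose by 0.10 ± 0.03 (adjusted p = 0.0101, 26 of 37 strains) and Sdhc by 0.09 ± 0.04 (adjusted p = 0.0476, 24 of 37). Sdhc lost its call without BXD63 (adjusted p = 0.0659). The catalytic subunits were not called, with differences of 0.02 for the flavoprotein Sdha and 0.07 for the iron-sulphur protein Sdhb, which was called with strain as a block (0.09, adjusted p = 0.0222). Sdhc was also not called after quantile normalization (adjusted p = 0.116) or centring on the brightest decile (adjusted p = 0.0936). With the spread of arrays set equal neither rise was called (0.01 for Sdhc and 0.04 for Sdhd), and Sdha was called lower, at -0.08 (adjusted p = 0.0215).

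Of the 8 complex III genes, 4 were called, all higher. Uqcr10, a small subunit, ran from 11.3 to 11.9 on CD (median 11.5) and from 11.4 to 11.9 on HFD (median 11.7), a rise of 0.12 ± 0.03 (adjusted p = 5.80e-04, 24 of 37 strains), and the HFD range lay within the CD range. Uqcrq (0.07), Uqcrh (0.07) and the core protein Uqcrc2 (0.06) also rose. Not called were the core protein Uqcrc1 (0.04), the Rieske iron-sulphur protein Uqcrfs1 (0.05), Uqcr11 (0.05) and Uqcrb (-0.04). With the spread of arrays set equal the 4 rises were not called, and Uqcrb was called lower, at -0.14 (adjusted p = 0.00236). On the deposited scale the other Uqcrb probesets differed by 0.03 and 0.04 without passing. Uqcrc2 was also not called after quantile normalization (adjusted p = 0.132) or centring on the brightest decile (adjusted p = 0.116), nor Uqcrh after quantile normalization (adjusted p = 0.0954).

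Complex IV had calls in both directions, with 5 genes higher and 3 lower among 17. The ubiquitous form of subunit 8, Cox8a, ran from 10.6 to 11.3 on CD (median 10.9) and from 10.7 to 11.4 on HFD (median 11.1). HFD was higher in 31 of 37 strains although the ranges overlapped. The rise of 0.20 ± 0.04 (nominal fold 1.14, adjusted p = 1.18e-05) was 0.15 with the spread of arrays set equal, 0.21 in batch 1 and 0.18 in batch 2, and was called in each. Cox6a1, the general form of subunit 6a, ran from 9.12 to 10.3 (median 9.43) on CD and from 9.23 to 10.1 (median 9.60) on HFD. It rose by 0.16 ± 0.05 (adjusted p = 0.00604, 29 of 37 strains), but was not called within either batch alone (0.19 and 0.14).

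The other 3 rises in complex IV were Cox5b by 0.10 ± 0.03, Cox6c by 0.08 ± 0.02 and Cox7c by 0.07 ± 0.02. With the spread of arrays set equal these were not called, at 0.01 for Cox5b, -0.04 for Cox6c and -0.04 for Cox7c. The striated muscle forms did not pass: the differences were 0.01 for Cox6a2, 0.04 for Cox8b and 0.06 for Cox7a1. Cox8b was called higher with strain as a block (0.05, adjusted p = 0.0382), and with arrays centred on their median Cox8b (0.06, adjusted p = 0.0299) and Cox7a1 (0.07, adjusted p = 0.0448) were. Cox4i1, the common form of subunit 4, differed by 0.05 and its lung form Cox4i2 by 0.05, and Cox6b1 (0.05), its testis form Cox6b2 (-0.01) and Cox7b (0.02) were likewise not called. Cox4i2 was called higher with median centring (adjusted p = 0.0346), and Cox7b lower with equal spread (adjusted p = 0.00954).

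The general form of subunit 7a went the other way. Cox7a2 ran from 11.59 to 12.07 on CD (median 11.84) and from 11.50 to 12.03 on HFD (median 11.74), and fell by 0.08 on this scale (SE 0.03, adjusted p = 0.0260), with HFD higher in 10 of 37 strains. The fall was not called when arrays were centred on their median (-0.06, adjusted p = 0.102), within either batch alone, or without the parental strains (-0.07, adjusted p = 0.0578). Cox8c and Cox7b2, forms known from testis, fell by 0.29 ± 0.04 (adjusted p = 2.32e-10) and by 0.28 ± 0.04 (adjusted p = 5.53e-09). Cox8c ran from 7.39 to 8.08 on CD and from 7.06 to 7.73 on HFD, and Cox7b2 from 4.97 to 5.91 and from 4.93 to 5.66. Both lie below the median level of all probesets (7.86), where 25.1% of probesets were called lower and the median difference was -0.01. Whether either was detected was not analysed here.

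Whether 2 forms of a subunit differed in their diet response was then tested directly within strains, a test chosen after the values were seen. In each strain the response (HFD minus CD) of the muscle form, or of the lung form Cox4i2, was taken from that of the general form. For subunit 6a the general form Cox6a1 exceeded Cox6a2 by 0.16 ± 0.05 units (SE over 37 strains, 28 of them positive, sign permutation p = 0.00322, adjusted over 4 pairs 0.00429). For subunit 8 Cox8a exceeded Cox8b by 0.13 ± 0.04 (28 of 37 strains, permutation p = 9.00e-04, adjusted 0.00180). For subunit 7a the sign was opposite, with Cox7a2 below Cox7a1 by -0.12 ± 0.03 (positive in 8 of 37 strains, permutation p = 1.30e-04, adjusted 5.20e-04). Cox4i1 and Cox4i2 were not told apart (0.01 ± 0.04, permutation p = 0.767, adjusted 0.767). These 3 contrasts kept their sign after quantile normalization, with equal spread of arrays, in the strains of each batch and without BXD63, while centring an array cannot change them. That of subunit 6a was 0.25 in strains of batch 1 and 0.08 in those of batch 2.

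**Figure D3:**
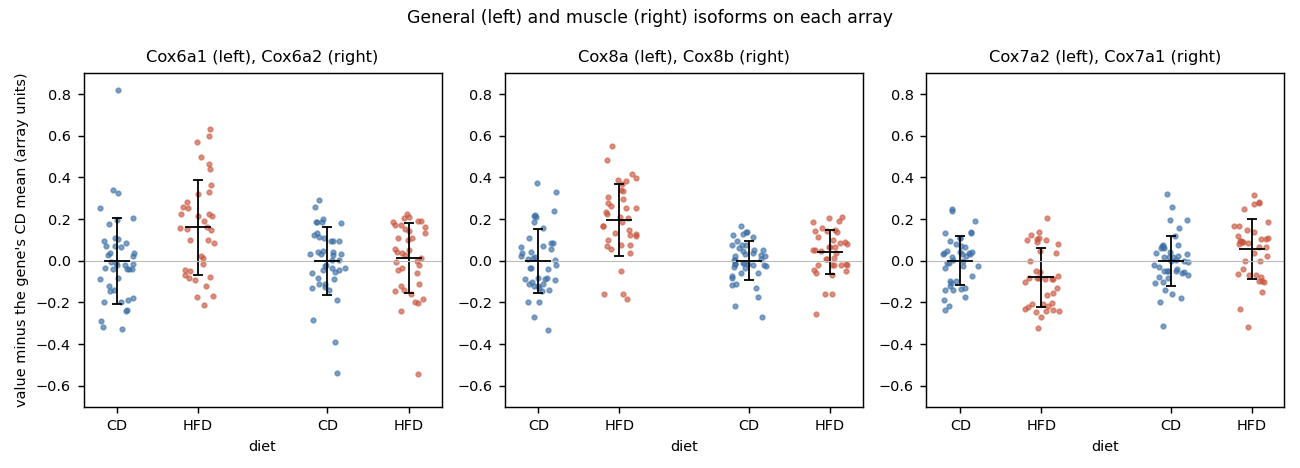
Value on each array minus the gene's CD mean, in array units (vertical axis), for the general form (left pair) and the striated muscle form (right pair) of subunits 6a, 8 and 7a, in blue for CD and red for HFD, with bars for the mean and SD. Cox6a1 and Cox8a shift up in HFD and Cox7a2 shifts down, while Cox6a2, Cox8b and Cox7a1 move by 0.06 units or less.

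Markers of other cells were set beside these forms across strains. Cox6a1 correlated with the mean of the adipocyte markers at r = 0.64 over 42 CD arrays and 0.55 over 37 HFD arrays, and with the macrophage markers at 0.42 and 0.62. Cox8a gave 0.18 and 0.57 with the adipocyte list and 0.37 and 0.44 with the macrophage list. With the slow fibre list Cox8a gave 0.42 on CD, above its other CD values, and -0.02 on HFD, and with the endothelial list 0.33 and 0.21. Cox6a1 gave 0.33 and -0.08 with the slow fibre list and 0.28 and 0.20 with the endothelial list. Cox7a2, the general form that fell, gave 0.07 and 0.01 with the adipocyte list and 0.01 and 0.11 with the macrophage list. For the muscle forms Cox6a2, Cox8b and Cox7a1 the adipocyte values lay between -0.35 and -0.01, and the slow fibre values between 0.03 and 0.31. Ndufa4l2 gave 0.49 on CD and 0.18 on HFD with the endothelial list. The points share arrays and their scaling, so these are descriptions. The part of fat, macrophage, endothelial or slow fibre RNA in the diet differences of these genes was not tested.

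Complex V had the lowest median of the 5 complexes, 0.03, with 3 called among 15. Atp5o, the stalk subunit that confers oligomycin sensitivity, ran from 12.05 to 12.50 on CD (median 12.28) and from 11.95 to 12.38 on HFD (median 12.16). It fell by 0.11 on this scale (SE 0.02, adjusted p = 1.49e-04), with HFD higher in 9 of 37 strains, and this fall was called under all 5 scalings but not in batch 1 alone (-0.09, adjusted p = 0.114). Rises were called for Atp5d, a subunit of the F1 central stalk (0.09 ± 0.02), and Atp5j (0.07 ± 0.02), but only without equal spread of arrays. The catalytic pair Atp5a1 (0.02) and Atp5b (-0.01) was not called, but both were called lower with the spread of arrays set equal (-0.08 and -0.12). Among the 3 genes set apart, Atp5s rose by 0.09 ± 0.02 (adjusted p = 0.00261). It was called under all 5 scalings, with 0.07 to 0.11 under the 4 others, but in neither batch alone (adjusted p = 0.0948 and 0.0658).

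Several probesets existed for 19 members, and 27 extra probesets correlated with the main one at a median r of 0.96. No gene had calls in both directions. In 5 of the 19 (Atp5f1, Cox7c, Ndufab1, Ndufb11 and Uqcrc2) some probesets were called and others were not. Some of these probesets may read processed copies of the gene elsewhere in the genome, so their values are uncertain.

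Other genes of the pathway, from a fixed list of 24, of which 23 were on the array, were called in 10 cases, all higher, and 13 were not called. Over all probesets 38.1% were called, 18.9% higher and 19.3% lower. Among the carriers 4 of 5 rose, including the complex III cytochrome Cyc1 (0.13 ± 0.03, 32 of 37 strains) and Etfb (0.15 ± 0.04), which brings electrons from fat oxidation. Cytochrome c itself (Cycs) differed by 0.08 without being called, though it was with arrays centred on their median (0.10, adjusted p = 0.0397). Etfdh lost its call after quantile normalization (adjusted p = 0.0605) and centring on the brightest decile (adjusted p = 0.0722). With the spread of arrays set equal the carriers lost their calls, with Cyc1 at 0.05 (adjusted p = 0.147) and Etfb at 0.07 (adjusted p = 0.206), and 4 of the 10 calls were kept (Sdhaf1, Sdhaf2, Cox17 and Cox19). Both complex II assembly factors rose, as did the copper chaperone Cox17 (0.13 ± 0.03) and Cox19 (0.11 ± 0.03), whereas the 3 complex III assembly factors did not pass (0.01 to 0.04). Of 8 transcriptional regulators 1 rose, the coactivator Ppargc1b (0.14 ± 0.04, adjusted p = 0.00517). Ppargc1a (0.05), Esrra (-0.05), Nrf1 (-0.04), Gabpa (-0.01), Tfam (0.01), Yy1 (-0.05) and Ppara (0.03) were not called, although Yy1 was called lower with the spread of arrays set equal (-0.09, adjusted p = 0.0253).

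Other mitochondrial pathways were set beside the respiratory genes. Of 14 fatty acid oxidation genes 13 rose, with a median of 0.24 units, and of 14 citric acid cycle genes 9 rose, with a median of 0.07. Among 74 mitochondrial ribosome genes 16 rose and 8 fell, with a median of 0.02. These counts stand beside 18.9% of all probesets called higher and 19.3% called lower. With the spread of arrays set equal the medians were 0.19 for fatty acid oxidation, where 10 of the 13 calls were kept, -0.01 for the citric acid cycle, where 1 of 9 was kept, and -0.01 for the ribosome genes. No test between the lists was made.

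The strain comparison asked whether strains keep their level from one diet to the other. Of the 90 members, 27 (30%) had a strain term past the threshold in limma over the 74 arrays of paired strains. That exceeded the 13.6% of all probesets but was below the 35.8% of the brightest decile. Called genes included 3 of 4 in complex II (Sdhb, Sdhc and Sdhd), 14 of 38 in complex I, 3 of 5 complex I assembly factors, 2 of 8 in complex III, 3 of 17 in complex IV and 2 of 15 in complex V. In all, 7 members were called for both strain and diet, but the share of all probesets called for both was not computed. Across the 37 paired strains, the CD and HFD values of a member correlated at a median r of 0.35, against 0.16 over all genes and 0.38 over the genes of the brightest decile. The members' median was 0.53 in strains of batch 1 alone and 0.28 in those of batch 2 alone. An r of at least 0.5 was reached by 14 members (15.6%, against 8.87% of all genes and 26.2% in that decile).

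The 5 members with the largest strain F all belong to complex I or its assembly. Ndufc2, an accessory membrane subunit, ran from 13.2 to 13.9 on CD (median 13.7) and from 13.23 to 13.99 on HFD (median 13.74), with F = 7.55 (limma adjusted p = 3.91e-07). Its strains fell into separate clusters: 17 strains, DBA/2J among them, averaged 13.4 over both diets, and 20 strains, C57BL/6J among them, averaged 13.8. The clusters were assigned from these strain means, which lay between 13.3 and 13.6 in the lower and between 13.70 and 13.96 in the upper. No correlation between diets is given for Ndufc2, since the clusters were cut on the mean of both values. No genotype was read here.

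The strains did not meet the rule for separate clusters in the other 4. Ndufa2, an accessory subunit, ran from 10.4 to 11.5 on CD (median 10.9) and from 10.6 to 11.6 on HFD (median 11.01), and BXD90 was lowest and BXD65 highest on both diets. Its r between diets was 0.70 (rho 0.61, permutation p = 1e-05, the smallest the draws can give, and 1.10e-04, adjusted over the 5 genes 2.50e-05 and 1.37e-04). Ndufaf1, an assembly factor of the membrane arm, gave r = 0.68 (rho 0.63, permutation p = 2.00e-05 and 4.00e-05), Ndufa9 r = 0.62 (rho 0.58, 5.00e-05 and 1.70e-04) and Ndufc1 r = 0.62 (rho 0.65, 8.00e-05 and 4.00e-05), with adjusted values of at most 8.00e-05 for r and 1.70e-04 for rho. When the 2 strains with the most extreme CD values were dropped, r fell to 0.57, 0.63, 0.54 and 0.55. Within strains of batch 1 alone r was 0.83, 0.79, 0.84 and 0.80, and in batch 2 it was 0.63, 0.77, 0.81 and 0.56. In the 8 strains whose arrays came from different batches it was 0.47, 0.60, 0.12 and 0.41. These genes were ranked by an F from the same values, so the p-values are no separate evidence.

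**Figure D4:**
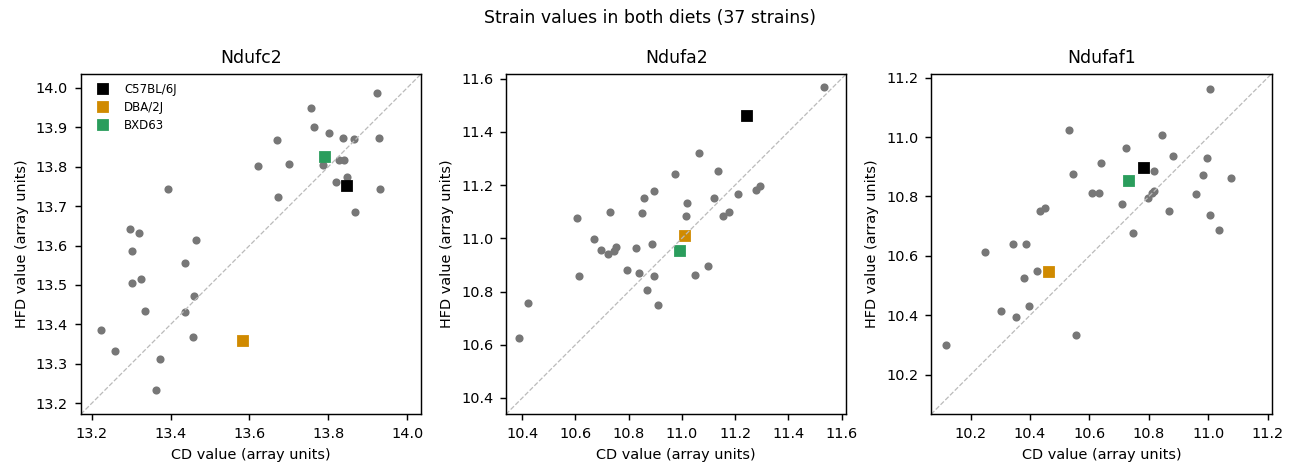
HFD value against CD value in array units for the 37 strains with both diets, for Ndufc2, Ndufa2 and Ndufaf1, with both parents and BXD63 as coloured squares and a dashed line of equality. Ndufc2 strains gather in a group near 13.4 that holds DBA/2J and a group near 13.8 that holds C57BL/6J, while Ndufa2 and Ndufaf1 spread along the line.

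Between the parental strains, 0 of 90 members were called with limma, against 1.26% of all probesets, and limma-trend also called 0 members. An unadjusted p below 0.05 was found for 14 members with limma and 17 with limma-trend. The share of all probesets at that unadjusted threshold was not computed, so these 2 counts have no background beside them. The smallest adjusted p was 0.167, for Ndufc2, which was 13.8 and 13.8 units in C57BL/6J (CD and HFD) and 13.6 and 13.4 in DBA/2J, a difference of 0.33 ± 0.11. Each parent had 1 array per diet.

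Across strains the members moved together to a moderate degree. The median correlation over the 4005 pairs was 0.24 in CD and 0.18 in HFD, and 80.5% and 72.9% of pairs were positive. Over all genes the median was 0.01 in both diets, and over the genes of the brightest decile it was 0.01 in CD and 0.02 in HFD. Among the structural subunits, genes of the same complex (978 pairs, median 0.26 in CD and 0.20 in HFD) gave values close to those of genes of different complexes (2343 pairs, 0.27 and 0.21), a difference that was not tested. In CD the medians within complexes were 0.43 for III, 0.37 for II, 0.33 for V, 0.25 for I and 0.16 for IV, and in HFD they were 0.26, 0.32, 0.25, 0.20 and 0.16. All pairs share arrays and their scaling.

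The genes most in step with the rest in CD were Uqcrc2 (mean r 0.40), the c-ring gene Atp5g3 (0.38) and Ndufa4 (0.37), which is named for complex I but is now placed in complex IV. Least in step were the muscle form Cox6a2 (-0.10), Cox4i2 (-0.06) and Atp5g2 (-0.03). In HFD the same 3 gave -0.05, -0.02 and -0.0035, and the lowest there were Ndufaf2 (-0.08) and Atp5s (-0.05). Cox6a2 and Uqcr11 gave the lowest r of any pair on each diet, -0.82 in CD and -0.73 in HFD. Both values include BXD65, the strain highest for Uqcr11, and were not computed without it. Between the forms of a subunit 8 correlations were computed, and no adjusted p was below 0.13. The closest was Cox7a2 with Cox7a1 in CD (r = 0.37, permutation p = 0.0166, adjusted 0.133, rho = 0.34, permutation p = 0.0257, adjusted 0.206, n = 42 strains), which was 0.32 without the 2 outermost strains, 0.37 in batch 1 and 0.36 in batch 2, and the other 7 had r between -0.30 and 0.28.

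**Figure D5:**
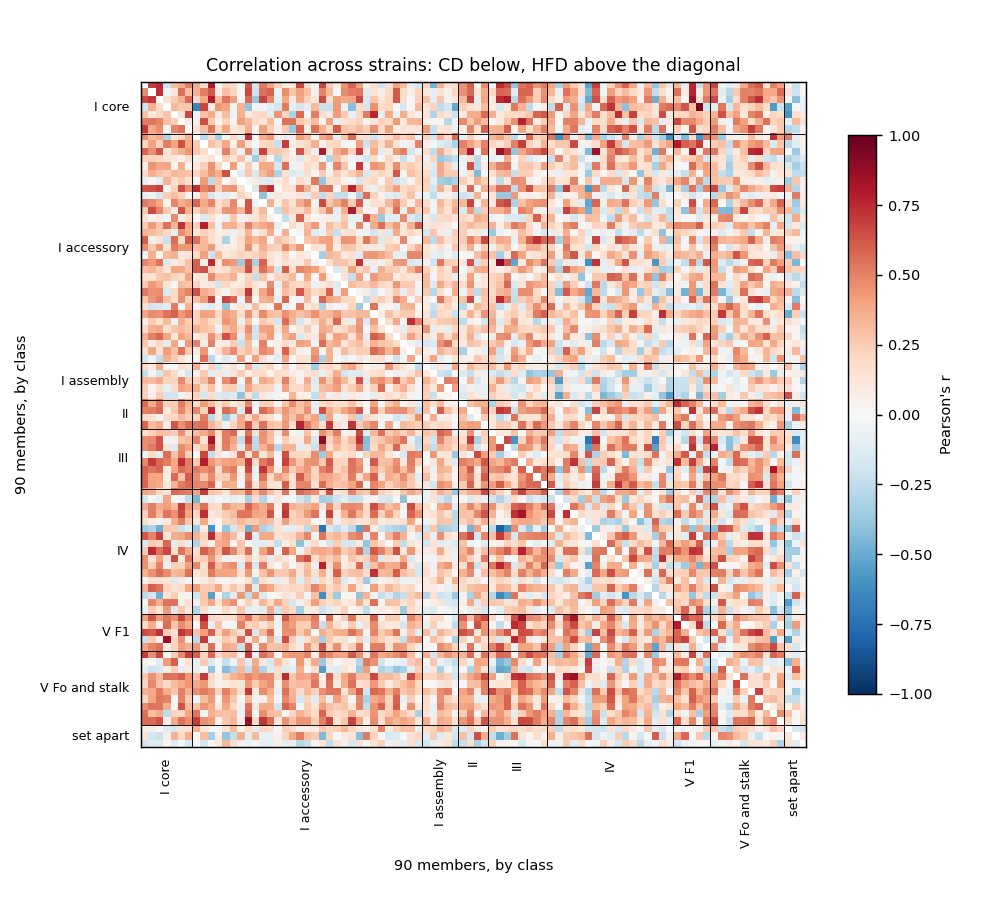
Pearson's r across strains between every pair of the 90 members, grouped by class, with CD below the diagonal and HFD above it; red is positive and blue negative. Red prevails within and between complexes alike, with blue streaks in complex IV and among the assembly factors and genes set apart.

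The range over strains was modest. The median member spanned 0.57 units between its lowest and highest strain in CD (nominal fold 1.49) and 0.56 in HFD (1.48), against 0.65 and 0.69 over all genes and 0.59 and 0.60 over the genes of the brightest decile. A span above 1 unit was seen for 5 members in CD and 4 in HFD. Uqcr11, the smallest subunit of complex III, spanned 1.74 units in CD, from 10.9 in BXD44 to 12.6 in BXD65, and 1.66 in HFD, from 10.9 in BXD51 to 12.6 in BXD65. Ndufb2 spanned 1.65 and 1.80, with the same strains lowest, and Ndufa11 1.21 and 1.08. These 3 rose and fell together, Uqcr11 with Ndufb2 at r = 0.89 in each diet and with Ndufa11 at 0.83 and 0.85. Without BXD65 these values were 0.87 in each diet with Ndufb2, and 0.77 and 0.83 with Ndufa11. Uqcr11 met the rule for separate clusters through 1 strain, BXD65, which averaged 12.6 over both diets against 11.5 in the other 36. No r between diets is therefore given for Uqcr11. Between diets Ndufb2 and Ndufa11 kept their strain order only loosely (r = 0.41 and 0.35). Cox6a1 spanned 1.15 in CD, and 0.67 without its highest strain, BXD56.

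The mean over the 82 structural subunits ran from 11.9 units in BXD43 to 12.2 in BXD65 in CD, and from 12.01 to 12.23 in HFD with the same strains at the ends. The HFD array had the higher mean in 26 of 37 strains, by 0.04 ± 0.07 units (SD over strains), and in 15 of 37, by -0.02 ± 0.10, with the spread of arrays set equal. Across strains the mean of the electron carriers followed it closely (r = 0.91 in CD and 0.88 in HFD), followed by the citric acid cycle (0.83 and 0.75) and fatty acid oxidation (0.73 and 0.73). Slow fibre markers, none of which was called between diets, gave 0.47 and 0.28, fast fibre markers -0.08 and 0.06, and adipocyte markers 0.16 and -0.03.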

How the data were processed

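Quadriceps RNA was hybridised to Affymetrix Mouse Gene 1.0 ST arrays. The deposited values are a score per probeset, which the authors scaled to a mean of 8.0 and an SD of 2.0 on each array. The submitters' notes name Affymetrix Expression Console. The background method, summary method, log base and any batch correction are not given in the sources used here. The planned tests, meant for log2 data, were applied to these scores. The number of arrays limits the precision.

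Members and lists were chosen with earlier results of these data known. Diet was fitted with limma 3.58.1 (R 4.3.3) over all 35556 probesets and 79 arrays, with batch as a term. Strain and parents were fitted over the 74 arrays of 37 paired strains with diet and batch. A probeset was called where its p, after Benjamini-Hochberg adjustment, was below 0.05. The score of a strain's CD and HFD arrays pairs by strain name: deviations from the diet means correlated at a median r of 0.20 over all probesets, above 0.1 in 33 of 37 strains. Correlations used values with the batch mean removed within each diet, and permutation tests used 100000 two-sided draws. A mixture that lowered the BIC by at least 10 with Ashman's D over 2 marked separate clusters. The limma steps were tested on simulated data. Correlations and permutations ran in scipy 1.17.1, mixtures in scikit-learn 1.9.0, tables in pandas 2.3.3 and numpy 2.4.6, and figures in matplotlib 3.10.9, all under Python 3.11.15.

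Genes named were the core genes of complex I, all of complexes II and III, the tissue forms of complex IV, the 5 called members with the largest difference each way, the 5 with the largest strain F, those called between parents and the 3 highest and 3 lowest in mean pairwise r, with others chosen after their values were seen. The values of 1 gene, which counts in the totals, are not reported here. All value columns were used. Symbols are those of the deposited table, and 4 members were matched to RefSeq by an older symbol. Alternatives covered the batch term, each batch, strain as a block, strains left out, scaling, probesets, thresholds and tests. Equal median and spread for the correlations and the test between forms of a subunit were added after the data were seen.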

Additional observations from a re-analysis of the deposited data

How the results depend on the processing

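With strain as a replicate block, which pairs the arrays of a strain, 43 members were called between diets, against 29 without it (47.8% and 32.2% of members, beside 40.6% and 38.1% of all probesets), and the median difference stayed positive (0.0548). Batch 1 alone called 7 members (7.78%, against 12.6% of all probesets) and batch 2 alone 15 (16.7%, against 24.4%), each with fewer arrays. The other settings called from 21, at a threshold of 0.01 (23.3%, against 27.2%), to 40, with arrays centred on their median (44.4%, against 39.3%). The side of the background on which the members fell thus depended on the setting. Setting the median and the median absolute deviation of each array equal turned the median diet difference over members to -0.0215; the cause was not tested. The 27 members called for strain became 21 to 37, and 0 were called between parents with limma under each setting run. An unadjusted p below 0.05 between parents was found for 13 to 17 members, with no share over all probesets computed for it. The median cross-diet r of 0.35 was 0.53 in batch 1 alone and 0.28 in batch 2 alone. The median pairwise r of 0.24 in CD was 0.27 in batch 2 alone, 0.28 with arrays centred on the brightest decile and 0.29 with equal median and spread. That of 0.18 in HFD was 0.15 in batch 1 alone, 0.24 in batch 2 alone and 0.24 with equal median and spread. The median strain range was 0.32 in CD and 0.32 in HFD between the 10th and the 90th percentile, which leaves out the extreme strains by construction.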
